A study of Mus musculus with 2 samples.

Results

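The 10 genes Lgr5, Ascl2, Smoc2, Olfm4, Axin2, Rnf43, Znrf3, Lrig1, Sox9 and Myc mark or regulate the stem cells at the base of the intestinal crypt, and were measured here in mouse sigmoid colon. They were chosen by name, and each of the 10 symbols matched 1 of the 43346 Ensembl genes in the gene tables. The tissue, the last bend of the large bowel before the rectum, came from 1 adult female C57BL/6J mouse aged 10 weeks, with no treatment named in the labels. Its polyadenylated RNA was made into 2 technical libraries. They are named by their technical replicate numbers. The labels give 2015 as the year performed for library 2 and no year for library 1. There was 1 group, and the comparison that the design allows is between the libraries of this mouse. Every SD below is over n = 2 technical libraries, every p covers counting error only, and neither covers differences between mice. The deposited level is TPM, an abundance corrected for transcript length and scaled to the same total in each library. The deposited expected count is an estimate of the reads that belong to a gene.

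Colonic epithelium is renewed from stem cells at the crypt base, where Wnt ligands hold the transcriptional co-activator β-catenin active. R-spondins bind Lgr receptors and keep the ubiquitin ligases Rnf43 and Znrf3 away from the Wnt receptor Frizzled, so the signal is amplified. Several Wnt target genes, Axin2, Rnf43 and Znrf3 among them, encode inhibitors of the pathway and form a negative feedback, and others, such as Ascl2, Sox9 and Myc, encode transcription factors of stem and progenitor cells.

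The libraries held 20681574 expected counts (library 2) and 25843064 expected counts (library 1). Mitochondrially encoded genes took 12.59% of the TPM in library 2 and 44.17% in library 1, so the share of TPM left to other genes differs between the libraries. Nuclear protein-coding genes took 75.34% of the TPM in library 2 and 31.33% in library 1. Levels over these genes alone are therefore given for Lgr5, Rnf43, Znrf3, Lrig1, Sox9, the sum of the 10 genes and the fibroblast sum. Elsewhere the deposited TPM stands alone, and its direction between the libraries can turn on the other scale. Car1, for example, was at 1937 TPM in library 2 and 3463 TPM in library 1 over nuclear protein-coding genes. Colonocyte markers were abundant in both libraries as a sum, though not each of them: the 7 genes summed to 17910 TPM in library 2 and 4548 TPM in library 1. The lowest of the 7 in library 1 was Guca2a, at 11.37 TPM, against 2470.58 TPM in library 2. Lypd8 was at 9733.91 TPM in library 2 and 1787.56 TPM in library 1, Car1 at 1459.08 TPM in library 2 and 1085.07 TPM in library 1, and Muc3 at 1860.19 TPM in library 2 and 649.84 TPM in library 1. The 10 small-intestinal and Paneth cell genes summed to 100.3 TPM in library 2 and 13.08 TPM in library 1. Rbp2, a retinol-binding protein, made up most of this sum in library 2, at 71.01 TPM, and was at 4 TPM in library 1. The Paneth lysozyme Lyz1, which can share reads with its close copy Lyz2, was at 16.19 TPM in library 2 and 7.96 TPM in library 1, and the alkaline phosphatase Alpi was at 5.77 TPM in library 2 and 0.17 TPM in library 1. The defensin Defa17 had 0 counts in both libraries and the lactase gene Lct had 3 counts in library 2 and 0 in library 1; both were chosen after their values were seen. Smooth muscle RNA was also present, with 7 genes summing to 4922 TPM in library 2 and 327.7 TPM in library 1. The RNA is that of a piece of tissue, so fewer cells of a type and less RNA per cell cannot be told apart.

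Of the 10 genes, 9 were detected in both libraries at levels from 0.82 to 53.22 TPM, and Olfm4 was at the detection limit. In library 2 the order ran from Lrig1 through Sox9, Smoc2, Axin2, Myc, Rnf43, Ascl2, Lgr5 and Znrf3 to Olfm4. The deposited intervals of neighbours separated after Lrig1, after Rnf43 and after Znrf3, so that Sox9, Smoc2, Axin2, Myc and Rnf43 formed a run of overlapping neighbours, as did Ascl2, Lgr5 and Znrf3. In library 1 the order was Sox9, Lrig1, Lgr5, Rnf43, Smoc2, Axin2, Znrf3, Myc, Ascl2 and Olfm4. There the intervals of neighbours separated after Sox9, Axin2, Myc and Ascl2. The Axin2 interval (3.035 to 4.819 TPM) was apart from that of Znrf3 (2.247 to 2.797 TPM) but overlapped that of Myc (2.079 to 3.35 TPM). The confidence level of the intervals is not stated in the file headers. An interval need not contain the deposited TPM. In library 2 the TPM lay above the upper bound for Lrig1 (53.22 against 53.06) and Sox9 (19.97 against 19.96). Their posterior mean TPM, 50.95 and 18.82, lay inside. Together the 10 genes summed to 154.1 TPM in library 2 and 50.8 TPM in library 1, or, counted among nuclear protein-coding genes alone, to 204.5 TPM in library 2 and 162.1 TPM in library 1. The levels thus lay between the 48.81 and 88.5 percentiles of nuclear protein-coding genes in library 2 and between the 50.69 and 86.23 percentiles in library 1, apart from Olfm4.

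**Figure D1:**
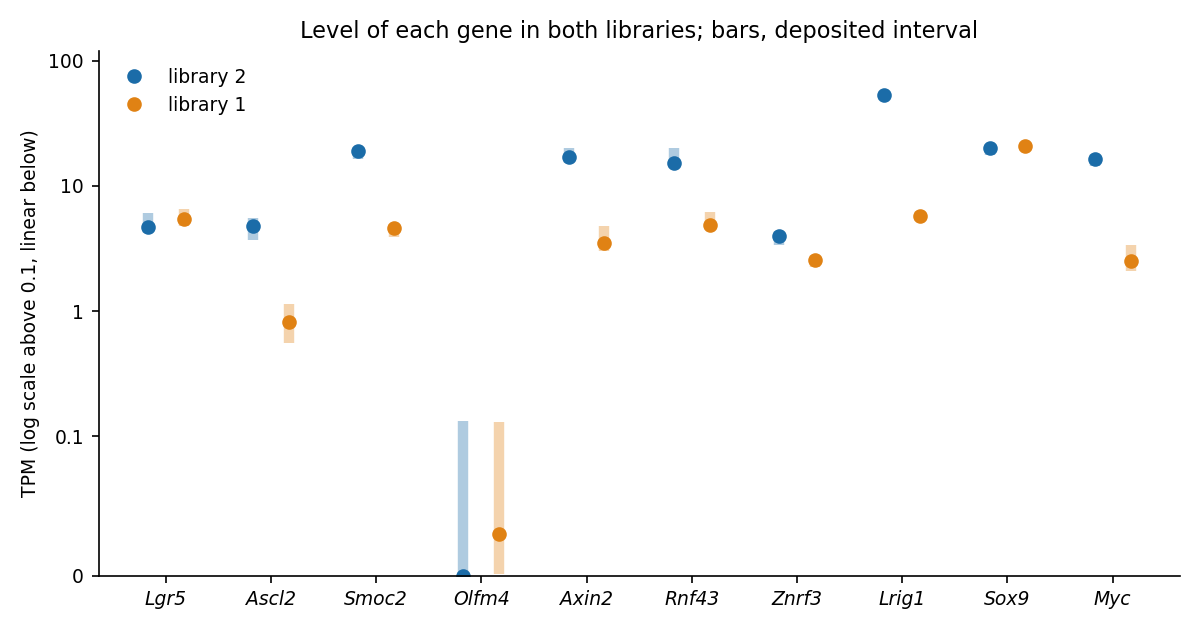
TPM of each of the 10 genes (y axis, logarithmic above 0.1 TPM and linear below) in library 2 (blue, left) and library 1 (orange, right), with the deposited interval as a pale bar. The bar need not contain the TPM. Lrig1 is highest in library 2 at 53.22 TPM, Sox9 is at about the same TPM in both libraries, and Olfm4 lies at or near 0 in both.

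For each gene the counts were compared between the libraries after TMM scaling, in which library 2 had 1.35 times the effective size of library 1. A gene was called at an adjusted p under 0.05 (two-sided exact binomial test, Benjamini-Hochberg over all 15711 genes tested) and a difference of at least 2-fold. Where TPM is the scale, calls rest on the 2-fold difference alone, without a test. Among the 10 genes, 9 had the mean count of 10 needed to be tested. Of these, 4 were called higher in library 2, against 36.9% of all genes tested, and 2 were called lower in library 2, against 28.1% of all genes tested. The libraries thus differ across the whole transcriptome, and the counts for these genes are no more than a description beside that background. Their median log2 ratio was 0.87, and that of all genes tested was 0.12.

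Lgr5, an R-spondin receptor and the classical marker of cycling crypt base stem cells (ENSMUSG00000020140.11, chromosome 10, 115450311 to 115587780, minus strand, GRCm38), was at 4.69 TPM in library 2 and 5.42 TPM in library 1, with a mean of 5.06 ± 0.516 TPM (SD, n = 2). The TPM values lie close together. The counts behind them were 286 in library 2 (95% Poisson interval 253.8 to 321.1) and 501 in library 1 (458.1 to 546.9). Scaled by TMM, Lgr5 fell in library 2 (log2 ratio -1.24, counting SE 0.11, adjusted p = 5.86e-32 by the exact binomial test), and over nuclear protein-coding genes it was at 6.22 TPM in library 2 and 17.3 TPM in library 1. The call was lost with TPM (log2 ratio -0.21) and with the totals of nuclear genes as the scale (-0.80). It was also lost with the trend of the ratio over GC content taken off (-0.31). The antisense-strand gene A930009A15Rik, which overlaps Lgr5, had 0 counts in both libraries.

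Ascl2, a basic helix-loop-helix factor that maintains intestinal stem cell fate (ENSMUSG00000009248.5, chromosome 7, 142966829 to 142969264, minus strand), was at 4.76 TPM in library 2 and 0.82 TPM in library 1 (2.79 ± 2.79). It had the fewest reads of the genes tested, 98 in library 2 (95% Poisson interval 79.56 to 119.4) and 28 in library 1 (18.61 to 40.47). Ascl2 rose in library 2 (log2 ratio 1.36, counting SE 0.31, adjusted p = 3.53e-06 by the exact binomial test). Its transcripts had the highest GC content of the 10 genes, 59.6%. With the trend of the ratio over transcript length taken off, its log2 ratio was 0.49 and the call was lost, and with the trend over GC content taken off it was called lower in library 2 (-3.30).

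Smoc2, a secreted matricellular protein of the crypt stem cell signature (ENSMUSG00000023886.9, chromosome 17, 14279506 to 14404790, plus strand), was at 18.86 TPM in library 2 and 4.59 TPM in library 1 (11.7 ± 10.1). It had 719 counts in library 2 and 292 in library 1, a 1.83-fold difference that was larger than counting error (adjusted p = 4.68e-19 by the exact binomial test) and below 2-fold. It was therefore not called, although the TPM values differ 4.11-fold.

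Olfm4, a secreted glycoprotein used as a marker of stem cells in the small intestine (ENSMUSG00000022026.6, chromosome 14, 79984081 to 80023139, plus strand), had 0 counts in library 2 and 1 count in library 1. That is 0 TPM in library 2, where a count of 0 allows up to 0.143 TPM (3 counts), and 0.03 TPM in library 1, where 3 counts correspond to 0.0858 TPM. The level of Lgr5 was 32.8 times this limit in library 2 and 63.2 times in library 1. Olfm4 was not tested. In mouse, Olfm4 is known as a gene of small-intestinal rather than colonic crypts.

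Axin2, the scaffold of the β-catenin destruction complex that is itself a Wnt target (ENSMUSG00000000142.11, chromosome 11, 108920349 to 108950783, plus strand), was at 17.08 TPM in library 2 and 3.51 TPM in library 1 (10.3 ± 9.59). It had 814 counts in library 2 (95% Poisson interval 759 to 871.9) and 182 in library 1 (156.5 to 210.4). Axin2 rose 3.32-fold in library 2 (log2 ratio 1.73, counting SE 0.12, adjusted p = 2.17e-59 by the exact binomial test). With the trend over GC content taken off its log2 ratio was -0.71 and it was not called. The antisense gene Gm11670, which overlaps it, had 0 counts in both libraries.

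Rnf43 and Znrf3 are the paired transmembrane ubiquitin ligases that remove Frizzled from the cell surface. Rnf43 (ENSMUSG00000034177.11, chromosome 11, 87662722 to 87735539, plus strand) was at 15.25 TPM in library 2 and 4.87 TPM in library 1 (10.1 ± 7.34), from 781 counts in library 2 and 348 in library 1. Znrf3 (ENSMUSG00000041961.10, chromosome 11, 5276324 to 5444847, minus strand) was at 3.99 TPM in library 2 and 2.55 TPM in library 1 (3.27 ± 1.02), from 308 counts in library 2 and 351 in library 1. Neither was called, and their scaled ratios had opposite signs: Rnf43 was 1.67-fold higher in library 2 (log2 ratio 0.74, counting SE 0.09) and Znrf3 was 1.53-fold lower in library 2 (log2 ratio -0.62, counting SE 0.11). The Znrf3 sign depends on the scale, since its TPM was higher in library 2 (log2 ratio 0.64). Over nuclear protein-coding genes Znrf3 was at 5.3 TPM in library 2 and 8.14 TPM in library 1. Rnf43 was at 20.24 TPM in library 2 and 15.54 TPM in library 1 on that scale.

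Lrig1, a transmembrane inhibitor of ErbB growth factor receptors that marks crypt stem and progenitor cells (ENSMUSG00000030029.10, chromosome 6, 94604529 to 94700158, minus strand), was at 53.22 TPM in library 2 and 5.72 TPM in library 1 (29.5 ± 33.6). Its 3608 counts in library 2 (95% Poisson interval 3491 to 3728) and 649 in library 1 (600 to 700.9) gave the largest ratio of the 9 genes tested, 4.13-fold higher in library 2 (log2 ratio 2.04, counting SE 0.06). Over nuclear protein-coding genes it was at 70.64 TPM in library 2 and 18.26 TPM in library 1, while with the trend over GC content taken off its log2 ratio was -0.43 and it was not called. The gene Slc25a26 overlaps the 3′ end of Lrig1 on the other strand over chromosome 6, 94604529 to 94604672, and had 131 counts in library 2 and 47 in library 1. The sources used here do not give the strand setting of the counting, and reads from the overlap cannot be told apart.

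Sox9, an HMG-box transcription factor of crypt stem and progenitor cells (ENSMUSG00000000567.5, chromosome 11, 112782224 to 112787760, plus strand), was at 19.97 TPM in library 2 and 20.78 TPM in library 1 (20.4 ± 0.573). Its 1135 counts in library 2 (95% Poisson interval 1070 to 1203) and 1975 in library 1 (1889 to 2064) gave a fall in library 2 by TMM scaling (log2 ratio -1.23, counting SE 0.05, adjusted p = 2.01e-120 by the exact binomial test). Over nuclear protein-coding genes it was at 26.51 TPM in library 2 and 66.32 TPM in library 1. With the totals of nuclear genes as the scale the log2 ratio was -0.79 and the call was lost.

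Myc, a transcription factor of cell growth and a target of β-catenin in the crypt (ENSMUSG00000022346.10, chromosome 15, 61985391 to 61990374, plus strand), was at 16.27 TPM in library 2 and 2.51 TPM in library 1 (9.39 ± 9.73). It had 462 counts in library 2 (95% Poisson interval 420.8 to 506.1) and 104 in library 1 (84.98 to 126). Myc rose 3.29-fold in library 2 (log2 ratio 1.72, counting SE 0.16, adjusted p = 5.37e-34 by the exact binomial test). With the trend over GC content taken off its log2 ratio was 0.27 (adjusted p = 0.122, exact binomial test) and the call was lost.

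**Figure D2:**
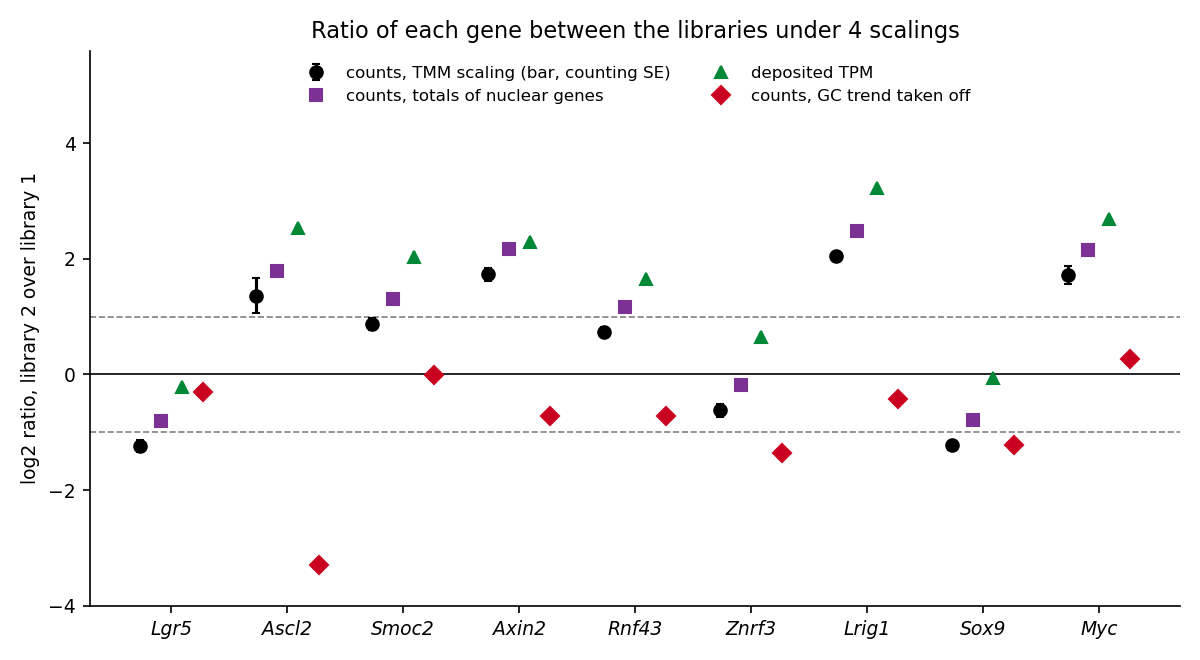
Log2 ratio of library 2 over library 1 (y axis) for the 9 genes tested, from counts scaled by TMM (black circles, bar the counting SE), counts scaled by the totals of nuclear genes (purple squares), deposited TPM (green triangles) and TMM-scaled counts with the GC trend of all genes taken off (red diamonds). Dashed lines mark 2-fold; Sox9 and Lgr5 are below 0 with each scaling shown, and Axin2, Rnf43, Lrig1, Ascl2 and Smoc2 (-0.01) change sign when the GC trend is taken off.

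In 3 of the 7 genes that have several transcripts, Axin2, Rnf43 and Myc, a different transcript led in each library. The deposited tables assign reads to transcripts by a model, so these are values without a test. For Axin2, the full-length coding transcript Axin2-201 had 745.52 counts in library 2 and 75.13 in library 1, 7.37-fold higher in library 2 after scaling. The processed transcript Axin2-203, made of the last 4 exons, had 43.19 counts in library 2 and 103.92 in library 1, 3.24-fold lower in library 2. Axin2-201 thus made up 74.44% of the gene in library 2 and 21.8% in library 1, and Axin2-203 made up 9.43% in library 2 and 66.14% in library 1. By this assignment the full-length and the truncated transcript of Axin2 differed between the libraries in opposite directions.

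For Rnf43, the 3 coding transcripts with counts that reach the last exon, Rnf43-201, Rnf43-202 and Rnf43-209, had 622.56 counts in library 2 and 28 in library 1, 16.5-fold higher in library 2. Rnf43-206, a retained-intron transcript that runs past exon 6 into the intron and ends there, had 157.05 counts in library 2 and 320 in library 1, 2.74-fold lower in library 2. Its share of the gene was 24.4% in library 2 and 93.15% in library 1. The gene-level ratio of Rnf43, 1.67-fold, is thus a sum over transcripts with opposite differences.

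The sequences at the points where these transcripts part are shown because a read across them belongs to only 1 of the 2 transcripts compared. They are on the plus strand of chromosome 11 (GRCm38), with the bases that both transcripts share in capitals and the bases that differ in lower case. In Axin2 the shared bases are the start of exon 8 at chr11:108943656-108943680. They follow exon 7 (chr11:108943095-108943129) in Axin2-201 and intron sequence (chr11:108943621-108943655) in Axin2-203.
Axin2-201: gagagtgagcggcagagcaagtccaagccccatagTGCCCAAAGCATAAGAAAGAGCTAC
Axin2-203: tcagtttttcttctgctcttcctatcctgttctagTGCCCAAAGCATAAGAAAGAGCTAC

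In Rnf43 the shared bases are the end of exon 6 at chr11:87729537-87729561. They run into exon 7 (chr11:87730132-87730166) in Rnf43-202 and into the intron (chr11:87729562-87729596) in Rnf43-206.
Rnf43-202: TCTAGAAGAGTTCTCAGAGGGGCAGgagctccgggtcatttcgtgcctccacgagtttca
Rnf43-206: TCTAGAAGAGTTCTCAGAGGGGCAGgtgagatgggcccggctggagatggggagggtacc

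Exon 7 is absent from Rnf43-206, whose differing bases read on through the splice donor gt into the intron. In Axin2-203 the differing bases end with the splice acceptor ag of the Axin2 intron before exon 8. The exon bases that Axin2-201 has and Axin2-203 lacks numbered 2250 and had a GC content of 57.4%, and the 2010 bases that Axin2-201 shares with it had 51.5%. The 1925 bases that Rnf43-206 has and Rnf43-202 lacks, in a longer first exon and in the intron, had a GC content of 43.5%, and the 2846 bases that Rnf43-202 has and Rnf43-206 lacks had 56.4%. In both genes the stretch with the higher GC content belongs to the transcripts that were higher in library 2. In Lrig1 it did not: the 130 bases particular to Lrig1-202 had 46.9%, although Lrig1-202 was 7.29-fold higher in library 2. In Myc it depended on the stretch. The 509 bases that Myc-202 has and Myc-204 lacks had a GC content of 50.9%, against 53.2% in the bases shared. Of these 509 bases, the 388 bases of exon 1 had 60.8%, and the others lie at the 3′ end. The part of GC content in these shifts was not tested.

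For Myc, the 3 transcripts with counts that hold exon 1, Myc-201, Myc-202 and Myc-205, had 384.92 counts in library 2 and 40.55 in library 1, 7.05-fold higher in library 2. Myc-204, which starts within the first intron and lacks exon 1, had 77.08 counts in library 2 and 63.45 in library 1, and made up 20.79% of the gene in library 2 and 66.47% in library 1. For Lrig1, Lrig1-202 made up 91.97% in library 2 and 52.15% in library 1, and Lrig1-201 made up 6.96% in library 2 and 47.85% in library 1. These coding transcripts differ mainly by an intron of 130 bases near the 3′ end, which Lrig1-202 keeps. The full-length Lgr5-201 was the main transcript of Lgr5 in both libraries, at 82.88% in library 2 and 74.71% in library 1. Znrf3-201 led in both for Znrf3, at 59.93% in library 2 and 70.18% in library 1. Sox9, Smoc2 and Olfm4 have 1 transcript each in the deposited tables. Ascl2 has a pair, whose split was not resolved: the deposited share of Ascl2-201 was 100% in library 2 and 99.9% in library 1, and the share by posterior mean was 64.94% in library 2 and 53.8% in library 1.

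**Figure D3:**
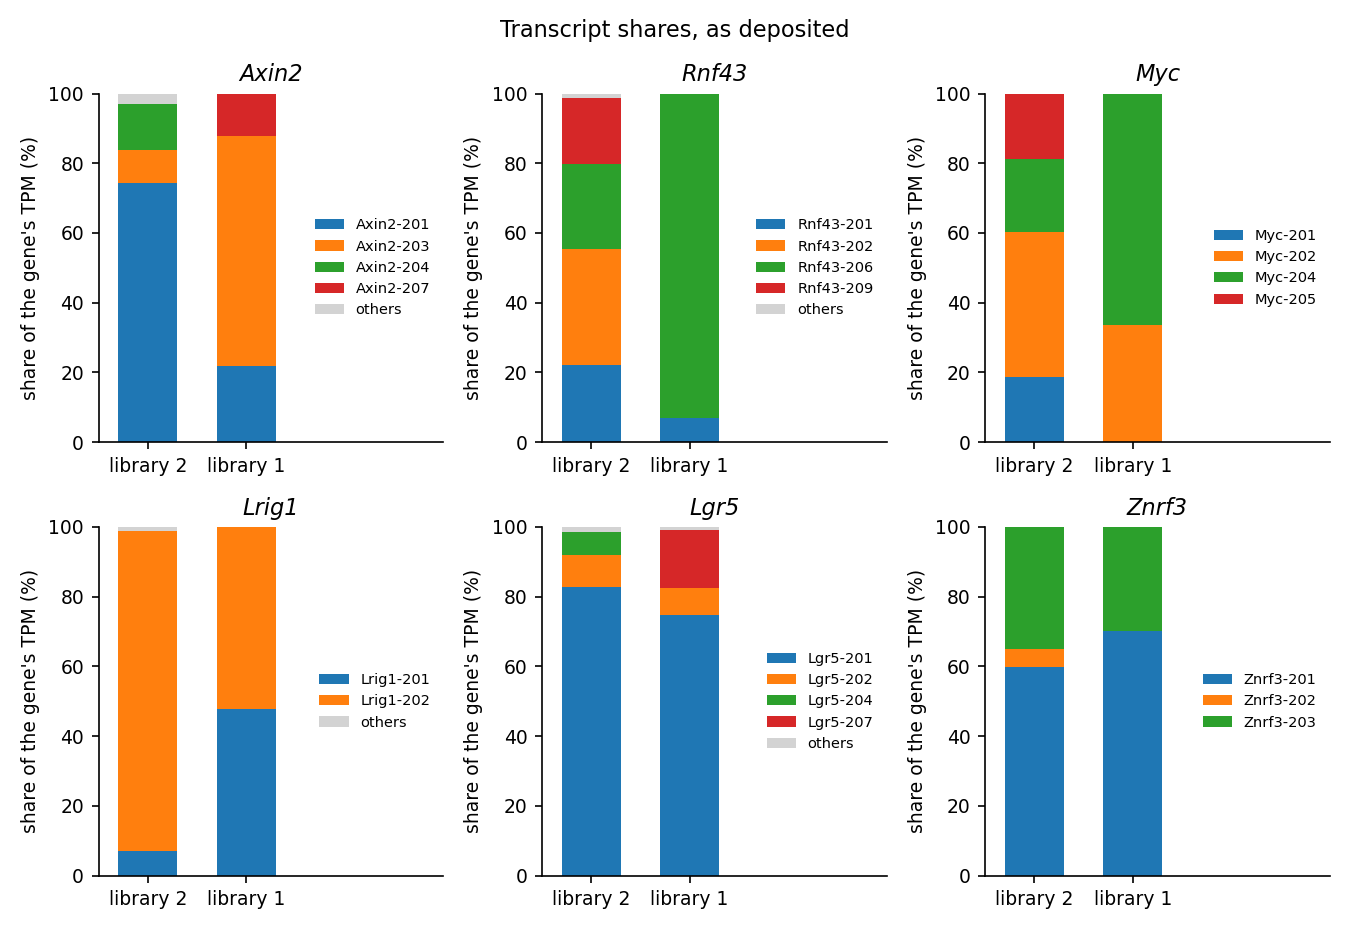
Deposited share of each transcript in its gene's TPM (y axis, %) in library 2 (left bar) and library 1 (right bar) for 6 genes; transcripts under 5% in both libraries are joined as others. Axin2-203 (9.43% in library 2, 66.14% in library 1), Rnf43-206 (24.4% and 93.15%) and Myc-204 (20.79% and 66.47%) take the smaller share in library 2, while Lgr5-201 and Znrf3-201 lead in both.

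The ratio between the libraries rose with GC content over all genes tested. Genes with 44 to 46% GC had a median log2 ratio of -1.12, those with 48 to 50% had -0.10, those with 54 to 56% had 2.37 and those with 58 to 60% had 4.53. The 4 genes called higher in library 2 had GC contents of 53.1% (Myc), 55.1% (Axin2), 55.1% (Lrig1) and 59.6% (Ascl2), and the 2 called lower had 45.8% (Lgr5) and 49.3% (Sox9). Relative to this trend Smoc2 was at -0.01 and Myc at 0.27, and the other 7 genes tested were between -0.31 and -3.30. The trend at the GC content of Ascl2 was 4.66, so that its log2 ratio of 1.36 became -3.30 when the trend was taken off. For Sox9 the trend was 0.00, and its ratio was -1.23 both with and without it.

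With the trend taken off, 0 of the 9 genes were called higher in library 2 (12.3% of 15664 genes) and 3 were called lower in library 2 (11.1%). Those 3 were Ascl2 (log2 ratio -3.30, adjusted p = 2.88e-16), Znrf3 (-1.36, adjusted p = 7.92e-32) and Sox9 (-1.23, adjusted p = 7.41e-120), all by the exact binomial test. The others were under 2-fold in either direction, with Axin2 at -0.71, Rnf43 at -0.71, Lrig1 at -0.43, Lgr5 at -0.31, Smoc2 at -0.01 and Myc at 0.27. The median of the 9 genes was then -0.71, and that of all genes was -0.01. Sox9 is the gene whose call in library 2 was the same with and without the trend, and it was lost with the totals of nuclear genes or with TPM as the scale.

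**Figure D4:**
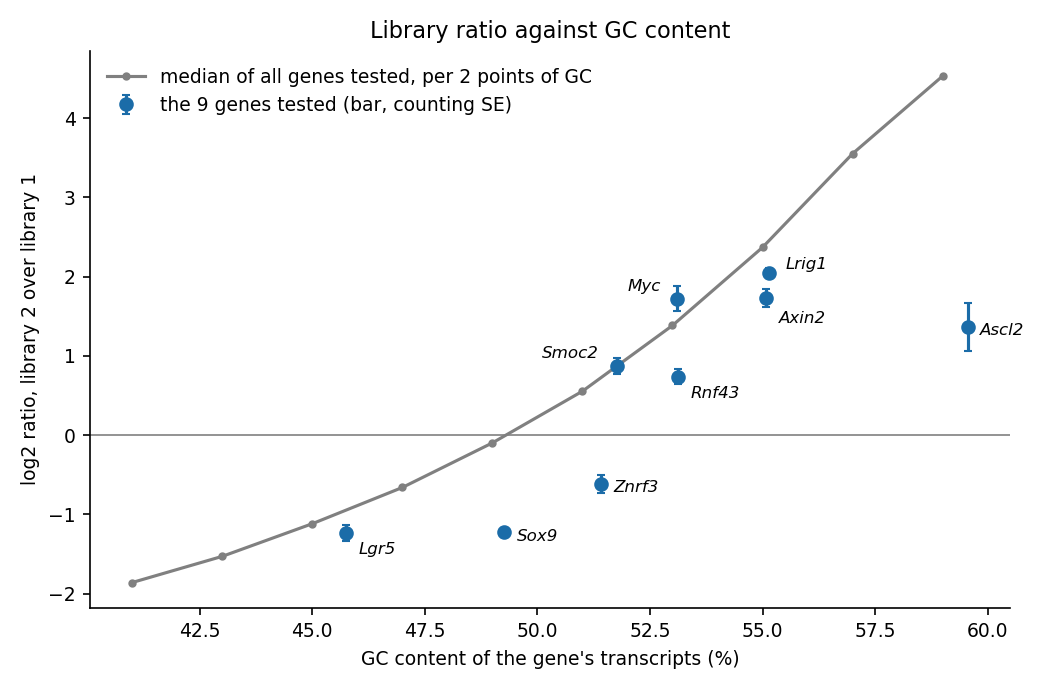
Log2 ratio of library 2 over library 1 (y axis) against the GC content of the gene's transcripts (x axis, %) for the 9 genes tested (blue, bar the counting SE), with the median of all genes tested per 2 points of GC content (grey). The grey line climbs from -1.86 at 40 to 42% to 4.53 at 58 to 60%, and Ascl2, Sox9 and Znrf3 lie farthest below it.

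Other genes of the crypt and the Wnt pathway are given by list, beside the 36.9% of all genes called higher and the 28.1% called lower in library 2, shares which became 12.3% and 11.1% with the GC trend taken off and 54.3% and 5.23% with TPM. Of 10 crypt base genes, 3 were called higher in library 2, 3 were called lower and 4 were not called, with a median log2 ratio of -0.29. With the GC trend taken off 1 was called higher and 1 lower, and with TPM 5 and 0. The TPM counts need a 2-fold difference alone, without a test, and none of these counts is read as a result about any list. Slc12a2, a sodium, potassium and chloride cotransporter, was at 83.75 TPM in library 2 and 144.73 TPM in library 1 (log2 ratio -1.96, called lower). Prom1, a membrane glycoprotein of apical protrusions, was at 101.07 TPM in library 2 and 89.97 TPM in library 1 (not called, with a ratio just short of 2-fold lower in library 2). Lgr4, the R-spondin receptor closest to Lgr5, was at 82.35 TPM in library 2 and 93.17 TPM in library 1 (log2 ratio -1.34, called lower). Lgr4 was more abundant than Lgr5 in both libraries, by TPM.

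Of 10 Wnt target genes, of which Cd44, Ephb2 and Ephb3 are also in the crypt base list, 8 were tested, 4 were called higher in library 2, 1 was called lower and 3 were not called. With the GC trend taken off 1 was called higher and 1 lower, and with TPM 6 and 0. Ccnd1, cyclin D1, was at 29.63 TPM in library 2 and 13.82 TPM in library 1 (log2 ratio -0.07, not called). The adhesion receptor Cd44 was at 20.15 TPM in library 2 and 20.23 TPM in library 1 (log2 ratio -1.46, called lower), and Ephb2, a receptor that positions cells along the crypt, was at 19.14 TPM in library 2 and 1.09 TPM in library 1 (log2 ratio 2.51, called higher). With the GC trend taken off, these 3 genes had log2 ratios of -0.63, -0.31 and -0.82. Among 9 Wnt receptor and R-spondin genes, 8 were tested, 2 were called higher in library 2 and 2 lower, against 1 and 2 with the GC trend taken off and 3 and 0 with TPM. The Wnt co-receptor Lrp6 was at 36.86 TPM in library 2 and 31.84 TPM in library 1 (log2 ratio -0.99), and Fzd5, a Frizzled of gut epithelium, was at 25.38 TPM in library 2 and 12.07 TPM in library 1 (log2 ratio -0.12), both not called.

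Of 10 genes of the β-catenin complex, 5 were called higher in library 2, 2 were called lower and 3 were not called, with a median log2 ratio of 1.44. With the GC trend taken off 1 was called higher and 4 lower, with a median of -0.81, and with TPM 8 and 0 were called. Ctnnb1, which encodes β-catenin, was at 423.65 TPM in library 2 and 206.74 TPM in library 1 (log2 ratio -0.15, not called). Axin1, the relative of Axin2 that is not a Wnt target, was at 24.28 TPM in library 2 and 6.75 TPM in library 1 (log2 ratio 2.83, called higher). The partner factor Tcf7l2 was at 37.79 TPM in library 2 and 32.37 TPM in library 1 (log2 ratio -1.25, called lower), and the kinase Gsk3b was at 21.58 TPM in library 2 and 21.33 TPM in library 1 (-1.44, called lower), whereas its relative Gsk3a was at 53.88 TPM in library 2 and 2.38 TPM in library 1 (3.34, called higher). Bcl9l, a β-catenin co-activator, had 768 counts in library 2 and 0 in library 1, which is at least 190.1-fold higher in library 2 against a limit of 3 counts; the median of the list is the same with Bcl9l at this bound. Its GC content, 61.7%, was the highest of the 10, and that of Gsk3b was 46%. With the GC trend taken off, Gsk3b was at -0.57 and Gsk3a at -1.43, both below 0. Axin1 was then at 0.05, Tcf7l2 at -0.77 and Ctnnb1 at -0.85.

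The 3 genes used as markers of slow-cycling reserve stem cells were called in different directions. Bmi1, a Polycomb protein, was at 14.16 TPM in library 2 and 28.68 TPM in library 1 (log2 ratio -2.38, called lower). Hopx, a small homeodomain protein, was at 43.74 TPM in library 2 and 8.22 TPM in library 1 (1.31, called higher), and Tert, the telomerase catalytic subunit, was at 1.29 TPM in library 2 and 0.03 TPM in library 1 (4.21, called higher, from 60 and 2 counts in library 2 and library 1). Hopx stood at 2.24 after the GC trend was taken off, Tert at 2.54 and Bmi1 at -0.22. With that trend taken off 2 of the 3 were called higher and 0 lower, and with TPM 2 and 1.

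Relatives of the 10 genes stood at different levels. Lrig3 was at 28.32 TPM in library 2 and 7.87 TPM in library 1, and Lrig2 was at 8.06 TPM in library 2 and 7.60 TPM in library 1. Olfm1 was at 10.62 TPM in library 2 and 2.83 TPM in library 1, where Olfm4 was at or near 0. Smoc1 was at 1.79 TPM in library 2 and 0.39 TPM in library 1, below Smoc2 in both. Sox8 was at 0.32 TPM in library 2 and 0.07 TPM in library 1, and Sox10, a glial factor, at 2.61 TPM in library 2 and 0.05 TPM in library 1. Mycl was at 13.15 TPM in library 2 and 1.11 TPM in library 1, and Mycn at 1.97 TPM in library 2 and 0.91 TPM in library 1, both below Myc. Lgr6 was at 0.08 TPM in library 2 and 0.05 TPM in library 1. Of the 14 relatives, 11 were tested, 3 were called higher in library 2, 3 were called lower and 5 were not called. With the GC trend taken off 0 were called higher and 4 lower, and with TPM 8 and 0.

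Genes of cycling cells were present beside the stem cell genes. Of 10 such genes, 3 were called higher in library 2, 3 lower and 4 were not called, against 2 higher and 0 lower with the GC trend taken off and 6 and 0 with TPM. Pcna, the sliding clamp of DNA replication, was at 72.77 TPM in library 2 and 83.6 TPM in library 1, Top2a, a topoisomerase of dividing cells, at 26.92 TPM in library 2 and 21.53 TPM in library 1, and the mitotic kinase Cdk1 at 29.74 TPM in library 2 and 14.15 TPM in library 1.

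Markers of other cells moved between the libraries too, and their part in the ratios of the 10 genes was not tested. All 7 smooth muscle genes were called higher in library 2, with a median log2 ratio of 2.85, and 6 of them with the GC trend taken off. Tagln was at 1185.59 TPM in library 2 and 73.58 TPM in library 1, Actg2 at 1206.78 TPM in library 2 and 84.9 TPM in library 1, and Acta2 at 1059.78 TPM in library 2 and 65.74 TPM in library 1. Of 9 epithelial genes, 6 were called higher in library 2 and 3 were not called, and with the GC trend taken off 3 were called higher and 2 lower. They had sums of 8730 TPM in library 2 and 1006 TPM in library 1. The epithelial adhesion molecule Epcam, at 955.49 TPM in library 2 and 451.24 TPM in library 1, was among those not called (log2 ratio -0.08). The keratins Krt8 and Krt19 were called higher (4.43 and 6.08). With the GC trend taken off, the log2 ratios were -1.37 for Epcam, 0.90 for Krt8 and 2.44 for Krt19. Of 6 fibroblast genes, 1 was called higher in library 2, 2 were called lower and 3 were not called, and with the GC trend taken off 0 were called higher and 3 lower. They summed to 837.3 TPM in library 2 and 661.4 TPM in library 1. Over nuclear protein-coding genes alone their sum was 1111 TPM in library 2 and 2111 TPM in library 1. The collagen Col3a1 was at 334.44 TPM in library 2 and 260.1 TPM in library 1, the proteoglycan Dcn at 260.51 TPM in library 2 and 257.2 TPM in library 1, and Col1a2 at 99.55 TPM in library 2 and 41.13 TPM in library 1. None of these epithelial, smooth muscle or fibroblast genes was at 0 counts in either library. The 5 glial genes summed to 14.41 TPM in library 2 and 5.95 TPM in library 1. The 3 genes of interstitial cells of Cajal, the pacemaker cells of the gut wall, summed to 198.4 TPM in library 2 and 44.79 TPM in library 1. Ano1 made up most of this sum in library 2, at 158.17 TPM, and was at 22.19 TPM in library 1.

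**Figure D5:**
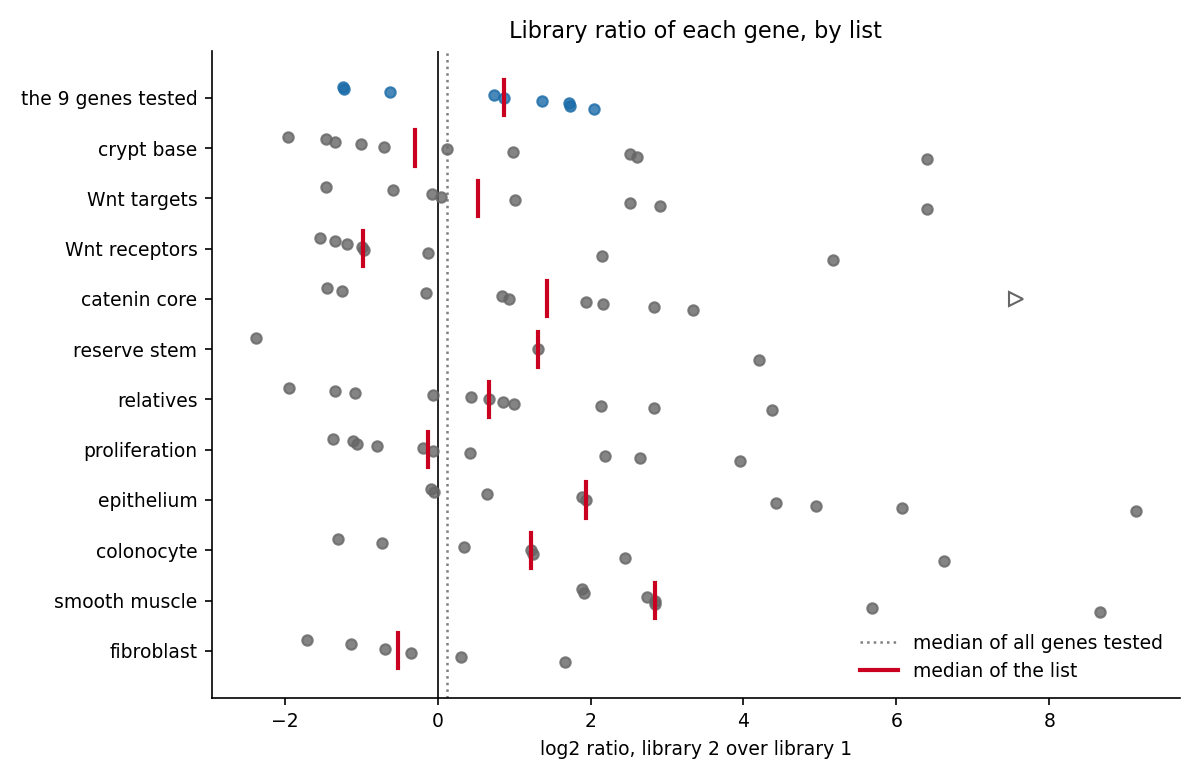
Log2 ratio of library 2 over library 1 (x axis) for each gene tested, by list (rows), with the list's median in red and the median of all genes tested, 0.12, as a dotted line. The open triangle marks the lower bound for Bcl9l; the 9 crypt genes spread from -1.24 to 2.04 around 0.87, and all 7 smooth muscle genes lie above 0.

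Promoter sequence was at hand in RefSeq (GRCm38.p6) for 5 of the 10 genes, as 6 windows of 300 bases around the start sites of Lrig1, Ascl2, Rnf43, Axin2 and Olfm4. The core T-cell factor motifs CTTTGA and CTTTGT were searched on both strands. They were in 0 of the 6 windows and in 31.2% of 32851 windows of the same length, which says only that these letters are absent from these windows.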

How the data were processed

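The members and the gene lists were chosen with earlier results of these data known. Per the file headers, the authors deposited for each library expected counts (estimated counts), TPM, a posterior mean TPM, interval bounds and transcript shares in percent, on mm10 with GENCODE M4 per the text files beside them. The interval bounds were read as scores around the deposited TPM, of unstated level. Neither aligner nor quantifier is given in the sources used here, and the strand setting is not stated. GENCODE M21 on GRCm38, the same assembly with a later annotation, gave positions and transcript sequences, and symbols matched 42462 of 43346 genes.

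Expected counts were rounded and scaled by TMM (edgeR 4.0.16 in R 4.3.3). Because 2 single libraries leave edgeR's quasi-likelihood test without residual degrees of freedom, a two-sided exact binomial test with Benjamini-Hochberg adjustment was used on genes with a mean count of at least 10 (scipy 1.17.1, prior count 0.5 for ratios). Before use it was run on simulated counts with known folds. These held counting error alone and no GC trend, as the test assumes, so the run cannot show how well the test suits these libraries. GC content is the TPM-weighted mean over a gene's transcripts, known for 99.7% of genes tested, and trends were lowess fits with a fraction of 0.2 (statsmodels 0.14.6). Levels over nuclear protein-coding genes are TPM rescaled to the full TPM total over them. Poisson intervals are exact at 95% and, like the limit of 3 counts, cover counting error only. Genes were named from the 10 members and the 3 genes of highest mean TPM in each of 14 lists. Any relative, reserve stem cell or β-catenin complex gene could also be named. Not every gene this rule allows is given, and the overlapping genes, Ephb3, Lct, Defa17 and Guca2a were named outside it. Alternatives were other scalings (DESeq2 1.42.0, upper quartile, totals of nuclear genes, TPM), GC and length trends taken off, edgeR's exact test with an assumed spread, other filters, prior counts and folds. The alternative that takes off both trends was added after the data were seen.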

Additional observations from a re-analysis of the deposited data

How the results depend on the processing

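Of the 9 genes tested, 4 were called higher and 2 lower in library 2, and both counts were the same or within 1.5 times under DESeq2 and upper-quartile scaling, the other filters, prior count and folds, the length trend taken off, and edgeR's exact test with an assumed coefficient of variation of 0.1. With totals of nuclear genes as the scale, which moves every log2 ratio by 0.44, 6 were called higher and 0 lower (42.6% and 18.8% of all genes), and with TPM 6 and 0 (54.3% and 5.23%). The TPM counts rest on a difference of at least 2-fold, without a test. With the GC trend taken off, alone or with the length trend, 0 were called higher and 3 lower. With an assumed coefficient of variation of 0.4, 0 were called higher and 0 lower, where 24.1% and 4.77% of all genes were; how much independent libraries vary was not measured. Signs turned with the GC trend taken off for Ascl2 (log2 ratio -3.30, and -3.47 with the length trend also off), Axin2 (-0.71 and -0.66), Rnf43 (-0.71 and -0.59), Lrig1 (-0.43 and -0.20) and Smoc2 (-0.01), and with TPM for Znrf3 (0.64). The causes were not tested. Leaving out either library leaves the other one's values and no ratio. No paired analysis was possible because there is 1 group. The fewest counts were those of Ascl2 (98 in library 2, 28 in library 1) and Olfm4 (0 and 1).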
